A study of Mus musculus with 10 samples.

Results

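The cadherins *Cdh2*, *Cdh4*, *Cdh6*, *Cdh7*, *Cdh8*, *Cdh9*, *Cdh10*, *Cdh11*, *Cdh12* and *Cdh13* were followed in dorsal root ganglia (DRG) of mouse embryos that lost *Dach1* in the neural crest. These 10 genes were chosen by name and found through their Ensembl identifiers, and all 10 were present among the 55414 genes of the count files. All 10 also passed the filter on low counts (at least 10 counts in at least 5 libraries), which left 17490 genes to test.

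RNA of DRG at E18.5 was sequenced in bulk from 5 control and 5 *WD1* cKO libraries to ask which genes depend on early *Dach1*. *WD1* cKO embryos carried Wnt1Cre/+ together with *Dach1* flox/flox, so that Cre removed the floxed exon in neural crest cells, from which the neurons and glia of the ganglion arise. Controls were littermates without Cre (labels: Wnt1+/+ with *Dach1* flox/flox), and the floxed line was kept on a mixed C57Bl/6J and CD1 background. In the labels, the genotype entry and the sample title name opposite groups, and libraries were grouped by title. The study counts its replicates as embryos. Which libraries shared a litter or a batch is not given in the sources used here, so neither entered the test. Controls held 20465132 to 27528784 assigned reads in a library and *WD1* cKO embryos 19757596 to 34796562, which gave each cadherin at least 139 counts in every library.

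*Dach1*, the transcription cofactor removed in the mutant, followed the titles. It stood at 35.1, 38.5, 41.6, 37.1 and 37.4 CPM (counts scaled to a library total of 1000000) in control replicates 1 to 5 and at 19.1, 20.7, 19.5, 20.3 and 20.4 CPM in *WD1* cKO replicates 1 to 5. Every *WD1* cKO library lay below every control library, and the fitted difference was -0.92 on the log2 scale (95% interval -1.03 to -0.81), with adjusted p = 5.48e-06 (edgeR's quasi-likelihood F-test, Benjamini-Hochberg over all genes tested). Reads on all exons of the gene enter this count, including those outside the floxed exon.

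Classical cadherins are transmembrane proteins that bind cadherins on the neighbouring cell in the presence of calcium and connect through catenins to the actin cytoskeleton. *Cdh2* (N-cadherin) and *Cdh4* (R-cadherin) are type I cadherins, which give strong adhesion, while *Cdh6* to *Cdh12* are type II cadherins, whose overlapping expression is known to help neurons sort into groups and find their partners. *Cdh13* (T-cadherin) is an atypical member, held at the membrane by a lipid anchor and lacking the cytoplasmic tail that binds catenins. In sensory ganglia, cadherins are expressed by neurons, by glia and by the surrounding mesenchyme. The libraries held whole ganglia, so a level here is that of the tissue, and fewer cells of a type cannot be told apart from less RNA per cell.

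Several members are neighbours in the genome. *Cdh6*, *Cdh9*, *Cdh10* and *Cdh12* lie in this order on chromosome 15 with 0 annotated protein coding genes between successive members, and *Cdh8* and *Cdh11* lie side by side on chromosome 8, which also carries *Cdh13*. *Cdh7* is on chromosome 1 next to *Cdh19*, a further type II cadherin, and *Cdh4* is on chromosome 2. The order was read from the GENCODE annotation of GRCm38 and is given without coordinates, because the counts were made on GRCm39.

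Promoter windows were at hand in RefSeq (GRCm38.p6) for 6 of the 10 members, *Cdh6*, *Cdh7*, *Cdh8*, *Cdh9*, *Cdh10* and *Cdh12*. They are shown for what these neighbouring genes share in sequence, apart from any value measured here. The promoters differed in base composition. The window of *Cdh10* was 37.7% G and C and held 2 CG pairs, against 62.3% and 21 pairs for *Cdh8*, while the median of the 32851 windows in the table was 52.7% and 7 pairs. The longest run common to the windows of any pair of members was 15 bases, shared by the chromosome 15 neighbours *Cdh6* and *Cdh9* on the strand of each gene. Searched on both strands, this run occurred in 2 of the 32851 windows (0.00609%), those of these genes. Both occurrences follow from how the run was picked, and how often other runs of 15 bases recur was not tested. It is in capitals in the stretches before the start of each gene, *Cdh6* at chr15:13173676-13173733 on the minus strand and *Cdh9* at chr15:16728666-16728760 on the plus strand. The match is a description of these windows, and no factor's binding was measured.
Cdh6: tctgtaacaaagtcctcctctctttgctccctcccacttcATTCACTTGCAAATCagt
Cdh9: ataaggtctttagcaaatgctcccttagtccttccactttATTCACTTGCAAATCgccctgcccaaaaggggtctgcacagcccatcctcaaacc
The run ended 4 bases before the annotated start of *Cdh6* and 195 bases before that of *Cdh9*. The levels of these 2 genes differed between libraries in different ways.

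*Cdh11*, a type II cadherin known from mesenchyme, was the most abundant of the 10 per transcript length. In control libraries it reached 62.5 ± 4.53 CPM per kilobase (SD, n = 5), followed by *Cdh2* at 25.1 ± 1.88 and by *Cdh8*, which is known from cold-sensing neurons and their spinal targets, at 13.4 ± 0.918 CPM per kilobase. *Cdh13* (9.93 ± 1.30) and *Cdh6* (9.90 ± 1.55 CPM per kilobase) came next and did not differ beyond their spread. *Cdh4* at 6.55 ± 0.847 and *Cdh10* at 5.01 ± 0.205 CPM per kilobase were each separate from their neighbours in all control libraries. The lowest 3 were *Cdh12* at 3.43 ± 0.884, *Cdh9* at 2.60 ± 0.466 and *Cdh7* at 2.08 ± 0.430 CPM per kilobase, and their ranges over the control libraries overlapped. In *WD1* cKO libraries the order was the same apart from an exchange of *Cdh13* (8.65 ± 1.18) and *Cdh6* (9.87 ± 1.25 CPM per kilobase). The order depended on the length used, here that of the longest protein coding transcript. With the length of all annotated exons joined, an alternative chosen after seeing the data, 3 of the 10 members kept their place, and *Cdh13* moved from the fourth to the sixth.

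**Figure D1:**
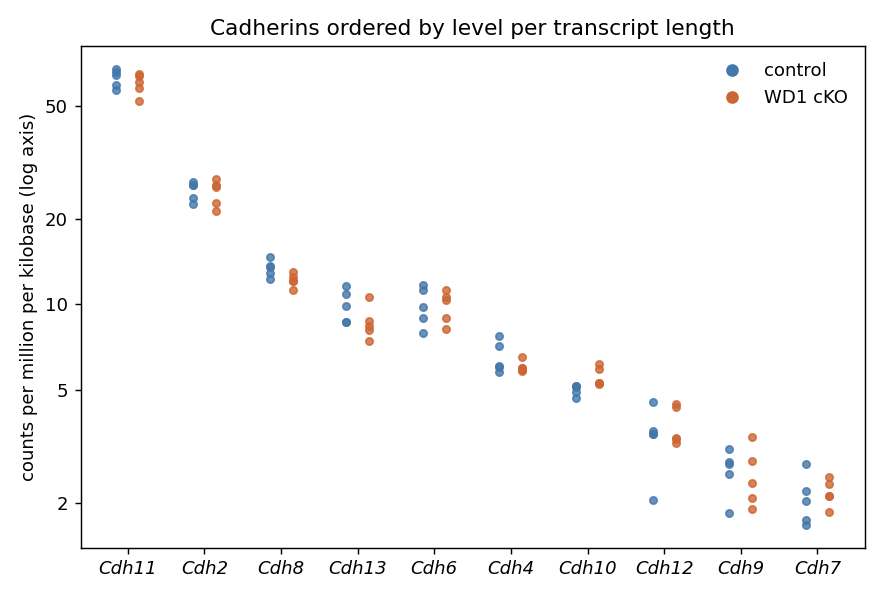
Level of each cadherin in CPM per kilobase of its longest protein coding transcript (log axis), with a point for each of the 5 control and 5 *WD1* cKO libraries. *Cdh11* lies above all other members in every library, and the points of *Cdh12*, *Cdh9* and *Cdh7* overlap.

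Loss of *Dach1* left no member past the threshold of the test over all genes. In edgeR's quasi-likelihood test 0 of the 10 had an adjusted p under 0.05, where 7 of the 17490 genes tested did (0.04%), and 0 of the 10 passed the study's cut-off (unadjusted p under 0.005, log2 fold change beyond 0.15 in either direction), where 67 genes did (0.383%). At an unadjusted p under 0.05 there were 2 members, *Cdh8* and *Cdh10*, beside 787 genes in all (4.5%), and DESeq2's Wald test also gave 2 members at this level and 0 after adjustment. The log2 fold change was negative for 7 members and positive for 3, with a median of -0.035, where over all genes tested 8719 were negative and 8771 positive. The median absolute log2 fold change was 0.093 over the members and 0.053 over all genes tested. Every member had an adjusted p of 0.9998.

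*Cdh10*, a type II cadherin, was the member whose groups did not overlap. It stood at 17.6, 17.6, 17.4, 15.9 and 16.8 CPM in control replicates 1 to 5 and at 20.2, 21.0, 18.0, 17.8 and 18.0 CPM in *WD1* cKO replicates 1 to 5. All 5 *WD1* cKO libraries were above all controls, although *WD1* cKO replicates 3 to 5 lay close to the highest control and most of the difference came from replicates 1 and 2. Of all genes tested, 87 (0.497%) had every *WD1* cKO library above every control in the same way. The log2 fold change was 0.16 (95% interval 0.03 to 0.29), which is 11.5% higher with an interval of 1.83% to 22.0%. With an unadjusted p = 0.0225 and an adjusted p = 0.9998 in edgeR's test, *Cdh10* did not pass the threshold, nor with a term for replicate numbers 1 to 3 against 4 and 5 (unadjusted p = 0.0103, adjusted p = 0.561). The term was taken from a split seen in these same data, so p-values with it, here and below, may be too small.

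*Cdh8* had the opposite sign. Its level was 62.8, 62.0, 67.5, 56.2 and 59.2 CPM in control replicates 1 to 5 and 59.8, 55.5, 57.4, 55.4 and 51.5 CPM in *WD1* cKO replicates 1 to 5. All 5 *WD1* cKO libraries were below the control mean of 61.5 CPM, but the groups overlapped, since control replicates 4 and 5 lay among the mutants. The log2 fold change was -0.14 (95% interval -0.25 to -0.022), with unadjusted p = 0.0233 and adjusted p = 0.9998 in edgeR's test. With a term for replicate numbers 1 to 3 against 4 and 5, taken from these same data, the unadjusted p was 0.00337 and the adjusted p 0.468. *Ntrk2*, which encodes the TrkB receptor of A-LTMR neurons and is listed here among the sensory neuron markers, had a log2 fold change of -0.18 (unadjusted p = 0.00611, adjusted p = 0.9998 in edgeR's test) in the same libraries. No relation between *Cdh8* and *Ntrk2* was tested.

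*Cdh13*, the lipid-anchored member, had the log2 fold change furthest from 0 among the 10. It was counted at 32.9, 32.9, 37.2, 41.0 and 44.0 CPM in control replicates 1 to 5 and at 33.1, 31.7, 28.2, 30.7 and 40.1 CPM in *WD1* cKO replicates 1 to 5. The 3 highest values of the controls, in replicates 3 to 5, exceeded 4 of the 5 mutant libraries, and the groups overlapped. The log2 fold change was -0.20 (95% interval -0.42 to 0.03, unadjusted p = 0.0779 in edgeR's test). A term for replicate numbers 1 to 3 against 4 and 5, taken from these same data, brought the unadjusted p to 0.0225 with an adjusted p of 0.601.

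**Figure D2:**
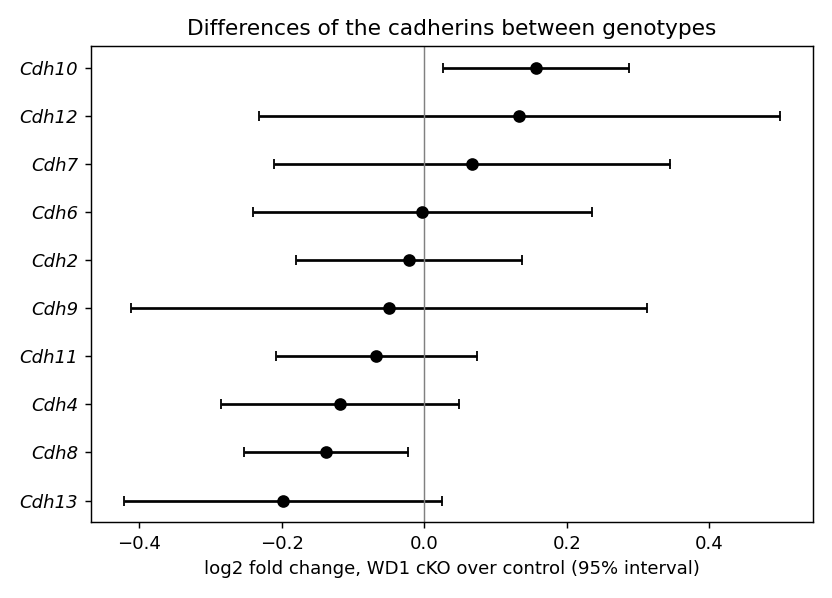
Log2 fold change of each cadherin, *WD1* cKO over control (horizontal axis), with the 95% interval of edgeR's quasi-likelihood fit over all 10 libraries. The intervals of *Cdh10* (0.03 to 0.29) and *Cdh8* (-0.25 to -0.022) do not reach 0, and those of the other 8 members do.

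The type I cadherins were close between the genotypes. *Cdh2*, the main adhesion molecule of neural tissue, stood at 130.4, 126.8, 127.0, 109.2 and 114.9 CPM in control replicates 1 to 5 and at 133.5, 127.4, 125.0, 110.4 and 102.9 CPM in *WD1* cKO replicates 1 to 5. The difference was -1.46% with an interval from -11.7% to 9.96%. *Cdh4* ranged from 37.0 to 49.5 CPM in controls and from 37.2 to 41.7 CPM in mutants, a difference of -7.86% (interval -17.9% to 3.45%). The higher control mean of *Cdh4* came from control replicates 3 and 4, at 49.5 and 45.6 CPM.

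Among the remaining type II cadherins, *Cdh11* stood at 369.6, 380.5, 361.3, 319.4 and 333.3 CPM in control replicates 1 to 5 and at 366.1, 341.2, 357.9, 325.3 and 293.9 CPM in *WD1* cKO replicates 1 to 5. Its difference of -4.52% had an interval from -13.4% to 5.27%. *Cdh6*, known from neural crest before it migrates, differed by -0.18% (interval -15.3% to 17.7%). The widest intervals were those of 3 members: the interval ran from -24.8% to 24.2% for *Cdh9*, known from synapses of hippocampal mossy fibres, from -13.6% to 27.1% for *Cdh7*, known from migrating crest cells in the chick, and from -14.8% to 41.3% for *Cdh12*. The coefficient of variation beyond counting noise was highest in *Cdh12* (18.7%) and *Cdh9* (18.3%) and lowest in *Cdh8* (6.27%) and *Cdh10* (6.82%).

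**Figure D3:**
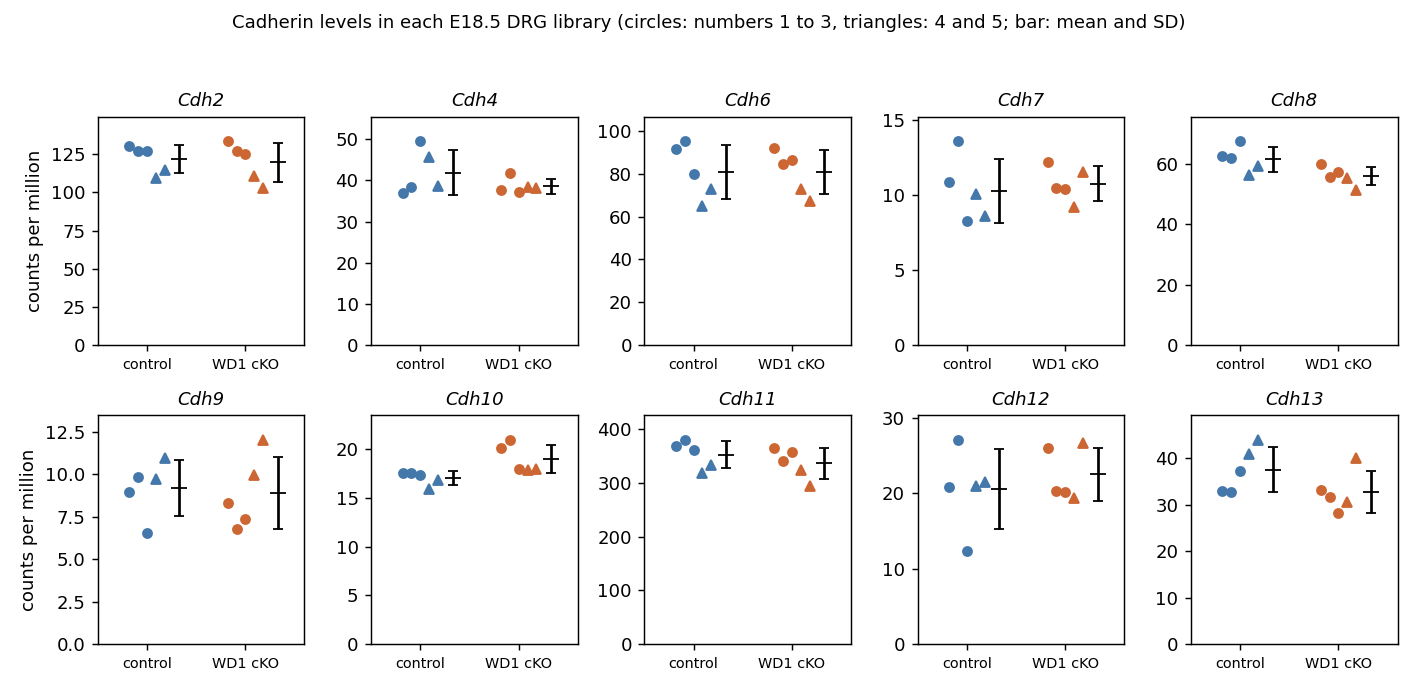
CPM of each cadherin in every library, control at left and *WD1* cKO at right of each panel, with circles for replicate numbers 1 to 3, triangles for 4 and 5, and a bar for the mean and SD of the 5 libraries. Every *WD1* cKO library of *Cdh10* lies above its controls, and in *Cdh2*, *Cdh6* and *Cdh11* the triangles lie below the circles in both genotypes.

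Some members differed between libraries by the replicate number of the titles. In *Cdh2*, *Cdh6* and *Cdh11*, all 6 libraries numbered 1 to 3 were above all 4 numbered 4 or 5, whatever their genotype. For *Cdh6* the values were 91.6, 95.1 and 79.7 CPM in control replicates 1 to 3 against 65.0 and 72.8 CPM in 4 and 5, and 92.0, 84.5 and 86.4 CPM against 73.0 and 67.1 CPM in *WD1* cKO libraries. The mean of numbers 4 and 5 over that of 1 to 3 was 0.776 in controls and 0.799 in mutants. The same ratio was 0.875 and 0.829 for *Cdh2* and 0.881 and 0.872 for *Cdh11*. Across all genes tested, 886 (5.07%) were higher in this way in every library numbered 1 to 3. *Cdh9*, *Cdh12* and *Cdh13* had ratios above 1 in both genotypes. In controls and mutants these were 1.22 and 1.47 for *Cdh9*, 1.06 and 1.04 for *Cdh12* and 1.24 and 1.14 for *Cdh13*. Over both genotypes together, the ranges of numbers 1 to 3 and of 4 and 5 overlapped for each. The control ratio of *Cdh12* rested on control replicate 3, at 12.3 CPM. Control replicates 1 and 2 stood at 20.9 and 27.1 CPM, against 21.0 and 21.5 CPM in 4 and 5.

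This split of the numbers was known from earlier results of these data, and what the numbers stand for is not given in the sources used here, so it is a description without a test. Other genes moved with it. The summed level of 3 blood genes (most abundant *Hbb-bs*, a globin) ran from 368.7 to 1959 CPM in libraries numbered 1 to 3 and from 126.5 to 185.1 CPM in those numbered 4 and 5, and their part in the levels of *Cdh2*, *Cdh6* and *Cdh11* was not tested. Because each group held numbers 1 to 5, the split did not separate the genotypes.

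The value of *Cdh12* depended on single libraries. It stood at 20.9, 27.1, 12.3, 21.0 and 21.5 CPM in control replicates 1 to 5 and at 26.0, 20.4, 20.1, 19.5 and 26.8 CPM in *WD1* cKO replicates 1 to 5. Control replicate 3 was the lowest of the 10. The log2 fold change of *Cdh12* was 0.13 (95% interval -0.23 to 0.50) with this library and -0.0028 without it, and the unadjusted p in edgeR's test was 0.442 and 0.981. Without control replicate 2, the highest of the 10, the log2 fold change was 0.25 (unadjusted p = 0.144).

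The 3 genes most similar to *Cdh12* were picked as the highest r of 11987 genes, so a low value in the same library is expected from the choice. *Etv1*, a transcription factor that proprioceptive neurons need to reach motor neurons, stood at 184.7, 218.8, 139.8, 199.1 and 203.9 CPM in control replicates 1 to 5 and at 227.6, 201.6, 192.3, 194.9 and 237.4 CPM in *WD1* cKO replicates 1 to 5. *Ntf3*, the neurotrophin that binds TrkC, stood at 10.1, 14.6, 4.28, 11.0 and 11.0 CPM in controls and at 12.9, 11.4, 10.3, 8.79 and 13.4 CPM in mutants, in the same order. After the group means were removed, Pearson's r with *Cdh12* over the 10 libraries was 0.979 for *Etv1*, 0.969 for *Ntf3* and 0.967 for *Lhfpl1*.

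The makeup of control replicate 3 differed. The summed level of 5 spinal cord genes, of which *Slc6a5* (a glycine transporter of spinal neurons) was the most abundant, was 11.96 CPM there and from 0.0842 to 1.06 CPM in the other 9 libraries. The summed level of the connective tissue genes was 5835 CPM there, the highest of the 10, against 4191 to 5445 CPM elsewhere. The part of these cells in the low *Cdh12* of this library was not tested.

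**Figure D4:**
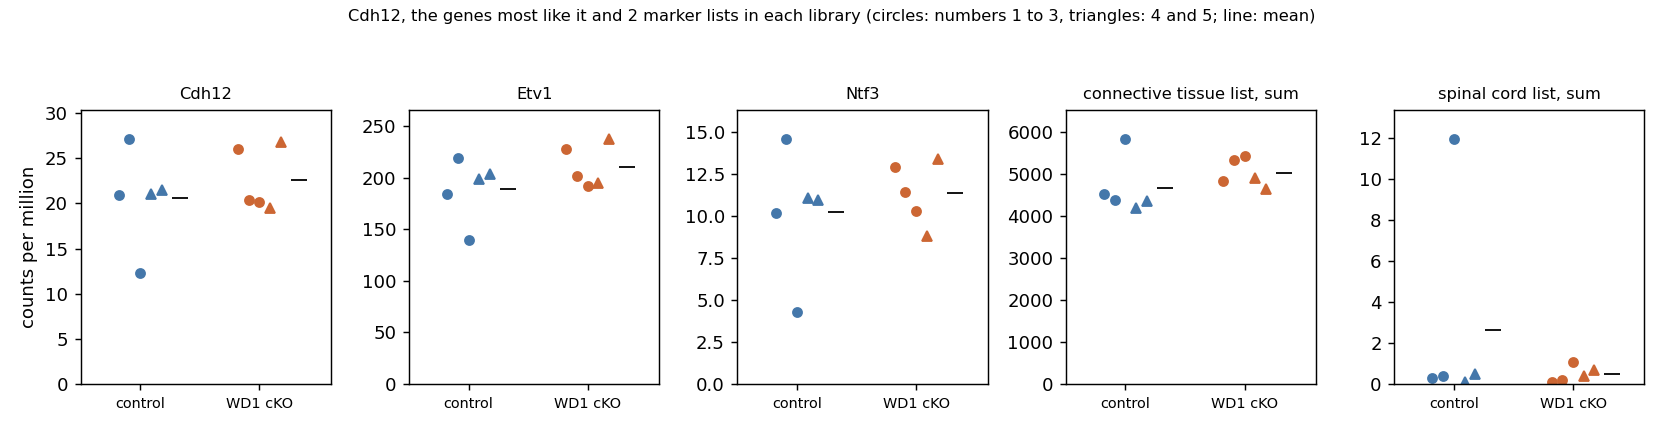
CPM of *Cdh12*, of *Etv1* and *Ntf3*, and of the summed connective tissue and spinal cord lists in every library (circles: replicate numbers 1 to 3, triangles: 4 and 5, line: group mean). Control replicate 3 is the lowest library for *Cdh12* at 12.3 CPM and the highest for both lists.

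Members were then compared with marker lists of the cells in the ganglion. For each member, Pearson's r and Spearman's rho were computed over the 10 libraries between its log2 CPM and the mean log2 CPM of the sensory neuron, glia and connective tissue lists, with the group means removed, giving 30 relations. Permutation p-values were two-sided and adjusted over the 30, and 4 relations had an adjusted p under 0.05 for Pearson's r. The permutations exchanged values between the genotypes after the group means were removed, so their p-values are approximate. Lower *Cdh12* and *Cdh9* went with more connective tissue RNA, and higher *Cdh12* and *Cdh7* with more sensory neuron RNA.

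Against the connective tissue list, *Cdh12* had r = -0.88 (permutation p = 0.00131, adjusted p = 0.0273) and rho = -0.79 (permutation p = 0.00887, adjusted p = 0.0791). *Cdh9* had r = -0.82 (permutation p = 0.00182, adjusted p = 0.0273) and rho = -0.87 (permutation p = 0.00208, adjusted p = 0.0439). Against the sensory neuron list, *Cdh12* had r = 0.81 (permutation p = 0.00418, adjusted p = 0.0376) and rho = 0.70 (permutation p = 0.0302, adjusted p = 0.151).

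*Cdh7* had r = 0.81 (permutation p = 0.00502, adjusted p = 0.0376) and rho = 0.85 (permutation p = 0.00293, adjusted p = 0.0439) with the sensory neuron list. The relations rested in part on single libraries. Without the 2 libraries farthest from the median of each list, which were control replicate 3 with *WD1* cKO replicate 3 for connective tissue and control replicate 3 with *WD1* cKO replicate 1 for sensory neurons, 0 of the 30 had an adjusted p under 0.05. For the 4 named relations r was then -0.66 for *Cdh12* and -0.73 for *Cdh9* with connective tissue, and 0.65 for *Cdh12* and 0.74 for *Cdh7* with sensory neurons, on the same side of 0 as before.

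Within the 6 libraries numbered 1 to 3, r was -0.98 for *Cdh12* and -0.91 for *Cdh9* with connective tissue, and 0.91 for *Cdh12* and 0.88 for *Cdh7* with sensory neurons. These 6 include the libraries left out above for these lists, so this is no independent check. The 4 libraries numbered 4 and 5 are too few for a correlation. Within numbers 1 to 3, 7 of the 30 relations had an adjusted p under 0.05 over all 720 orders of the 6 libraries. The smallest p these orders allow is 0.00139. The orders exchanged values between the genotypes after the group means were removed, and such values are not freely exchangeable. These p-values are therefore approximate and may be too small, and no conclusion is drawn from the 7. *Cdh9* with connective tissue was not among the 7 (permutation p = 0.0139, adjusted p = 0.0521), and the other 3 named relations were. *Cdh7* with connective tissue went from r = -0.51 over all libraries (permutation p = 0.136, adjusted p = 0.341) to -0.97, and *Cdh6* with sensory neurons from 0.48 (permutation p = 0.161, adjusted p = 0.346) to 0.90. *Cdh11* with the glia list went from r = -0.70 over all libraries (permutation p = 0.0234, adjusted p = 0.117) to -0.97, and *Cdh6* with connective tissue from 0.18 (permutation p = 0.627, adjusted p = 0.724) to -0.93, so for *Cdh6* the sign depended on the libraries compared.

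**Figure D5:**
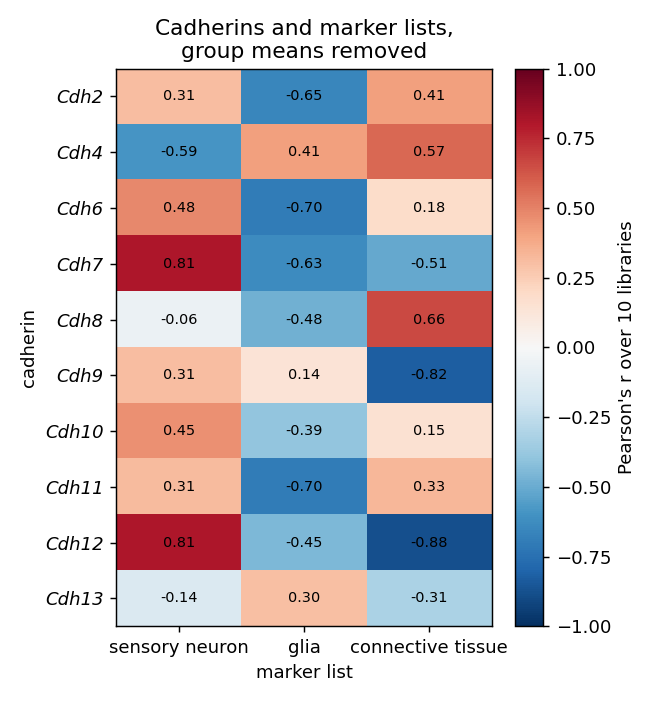
Pearson's r over the 10 libraries between each cadherin (rows) and the mean log2 CPM of each marker list (columns), with group means removed; red is positive and blue negative. The cells furthest from 0 are *Cdh12* (-0.88) and *Cdh9* (-0.82) with connective tissue and *Cdh12* and *Cdh7* (0.81 each) with sensory neurons.

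For the other members the 3 most similar genes were also taken from 11987 protein coding genes with a mean of at least 5 CPM, by Pearson's r of log2 CPM over 10 libraries with group means removed. As the highest of so many, these values are given without a p. Of the members that were higher in numbers 1 to 3, *Cdh2* was nearest *Glipr2* (r = 0.987), *Syn3*, which encodes a synapsin of nerve terminals (0.983), and *St3gal1* (0.981), while *Cdh11* was nearest *Olfml2a* (0.988), the splicing factor *Srsf1* (0.985) and *Vash2* (0.977). *Cdh6* was nearest *Plcd4* (0.984), *Neurl1b* (0.979) and *0610030E20Rik* (0.978).

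*Cdh13* was nearest *Sh3gl2*, which encodes endophilin of synaptic vesicle recycling (r = 0.984), *Pcp4* (0.954) and *Gskip* (0.944), and *Cdh9* was near *Galnt13* and *Atad1* (0.962 each). *Cdh4* was nearest *Pip5k1c* (0.968), *Palm* (0.957) and *Adcy5* (0.956), and *Cdh8* nearest *Celf3* (0.968), *Plcl2* and *Zfp697* (0.961 each). *Cdh7* followed *Grm3* (0.968), *Yes1* (0.952) and *Map7* (0.9502). *Cdh10* had the lowest top values, with *Wdr78* (0.932), *Cdyl2* (0.930) and *Fbll1* (0.916). None of the genes named in this way, those of *Cdh12* included, came up for more than a single member.

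The other classical cadherins held no gene past the threshold. Of 9 genes, *Cdh1*, *Cdh3*, *Cdh5*, *Cdh15*, *Cdh18*, *Cdh19*, *Cdh20*, *Cdh22* and *Cdh24*, all 9 were tested, 5 had a negative and 4 a positive log2 fold change, and 0 had an unadjusted p under 0.05 in edgeR's test, nor an adjusted one. The most abundant by count was *Cdh5*, VE-cadherin of endothelium, at 98.5 ± 14.6 CPM in control and 97.4 ± 17.9 CPM in *WD1* cKO libraries (SD, n = 5 each). The log2 fold changes furthest from 0 were those of *Cdh22* (-0.28), *Cdh24* (-0.15) and *Cdh18* (0.12). *Cdh22* lay near 1 CPM, at 0.662 to 1.37 CPM in controls, so its value is imprecise.

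The catenins, which link cadherins to actin, and other cytoplasmic partners such as vinculin were close between the genotypes as well. Of 11 genes listed, 10 were found in the files and tested, with 4 negative and 6 positive log2 fold changes. *Ctnnb1*, encoding beta-catenin, was the most abundant by count at 577.0 ± 10.7 CPM in control and 590.5 ± 8.31 CPM in *WD1* cKO libraries (SD, n = 5 each). *Jup*, encoding plakoglobin, which can stand in for beta-catenin, was the single gene of the list with an unadjusted p under 0.05 (log2 fold change -0.13, unadjusted p = 0.0317, adjusted p = 0.9998 in edgeR's test). Its level was 148.6, 160.2, 179.6, 170.8 and 152.8 CPM in controls and 157.4, 156.1, 144.7, 143.1 and 138.6 CPM in mutants, with overlap. *Ctnna3* at 0.12 and *Ctnnd2* at -0.094 had the next log2 fold changes furthest from 0.

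Nectins, adhesion molecules that assemble with cadherins, and the proteases that cut cadherins were tested as 6 genes, of which 5 had a negative and 1 a positive log2 fold change, with 0 at an unadjusted p under 0.05 in edgeR's test. *Adam10*, encoding the protease that sheds the outer part of N-cadherin, was the most abundant by count at 199.6 ± 11.4 CPM in control and 202.8 ± 14.3 CPM in *WD1* cKO libraries (SD, n = 5 each). *Mmp14* had the log2 fold change furthest from 0 (-0.14), where control replicate 3 reached 130.8 CPM and the remaining controls 94.1 to 99.9 CPM, followed by *Nectin1* (-0.076) and *Nectin2* (-0.053).

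The non-clustered protocadherins, relatives of the cadherins without the classical catenin-binding tail, are given for comparison. Of 11 tested, 2 had a negative and 9 a positive log2 fold change, 3 had an unadjusted p under 0.05, all positive, and 1 passed after adjustment. *Pcdh7* stood at 115.6, 119.4, 109.8, 115.2 and 121.5 CPM in controls and 136.2, 137.0, 138.3, 146.8 and 138.6 CPM in mutants, with every mutant library above every control. Its log2 fold change was 0.26 (adjusted p = 0.0273 in edgeR's test). This call was lost without any single one of control replicates 1, 2 or 4 or *WD1* cKO replicates 2, 3, 4 or 5, with adjusted p-values up to 0.0970, while the log2 fold change stayed between 0.24 and 0.28 in all 17 alternatives. *Pcdh11x* had a log2 fold change of 0.40 (unadjusted p = 0.00125, adjusted p = 0.784 in edgeR's test), also with every mutant library above every control. Its unadjusted p stayed under 0.05 in all 17 alternatives. *Pcdh7* and *Pcdh11x* passed the study's cut-off, as 67 of the 17490 genes tested did (0.383%), and the paper names both among its overexpressed genes. *Pcdh19* had a log2 fold change of 0.23 (unadjusted p = 0.0166, adjusted p = 0.9998). *Pcdh8* had the negative log2 fold change furthest from 0 (-0.37, unadjusted p = 0.0764 in edgeR's test) at 4.41 ± 1.41 CPM in controls, and *Pcdh1* was the most abundant by count at 259.8 ± 36.4 CPM in controls. The difference between the protocadherins and the cadherins was not tested.

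The cell type markers showed what the ganglia held. The 9 sensory neuron genes summed to 7003 to 7512 CPM in the 10 libraries (most abundant *Prph*), with 8 negative and 1 positive log2 fold changes. The 7 glia genes summed to 795.5 to 991.1 CPM, with 1 negative and 6 positive, and the 6 connective tissue genes to 4191 to 5835 CPM (*Col3a1*), with all 6 positive and *Lum* at an unadjusted p under 0.05. No marker gene had an adjusted p under 0.05 in edgeR's test, and the mean sum of the connective tissue list was 4662 ± 667.3 CPM in control and 5031 ± 344.2 CPM in *WD1* cKO libraries (SD, n = 5 each). Each of these lists had RNA in every library, so no cadherin level can be assigned to neurons alone.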

How the data were processed

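The authors dissected DRG, extracted RNA and prepared stranded mRNA libraries. Per the labels, reads were processed with bcl2fastq 2.20.0.422, STAR 2.7.8a and featureCounts 2.0.1 on GRCm39, and the deposited values are counts per gene without normalization. The strand setting of the counting is not given in the sources used here. The table of 55414 genes, 52081 with a symbol, was tested by edgeR 4.0.16 in R 4.3.3 (TMM, 10 counts or more in 5 or more libraries, quasi-likelihood test by genotype without block, Benjamini-Hochberg adjustment over 17490 genes). No pair of libraries within a group agreed within counting noise (chi-square over degrees of freedom 4.35 to 15.0), so none was the same library sequenced again. Each was taken as 1 replicate, although this check cannot tell separate embryos from separate preparations of 1 embryo. Alternatives were DESeq2 1.42.0 (size factors, Wald test), other filters, blocks and dispersions, and each library left out. Correlations used log2 CPM with a prior count of 2 and 100000 permutations. Genes are named if they are members, or in a list with an unadjusted p under 0.05, the highest level or, outside the marker lists, a log2 fold change among the 3 furthest from 0, apart from some that are not reported here. Marker lists covered endothelium, mural, muscle, spinal cord, macrophage and blood too. The members and lists were chosen with earlier results of these data known. The outcome of a check of the tests on simulated data is not given here, so no conclusion is drawn from it.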

Additional observations from a re-analysis of the deposited data

Results flagged for a closer look

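Single libraries lay far from the rest of their group in 7 of 94 groups of 5 libraries, and chance flags about 1 in 20 groups. In control replicate 3, *Cdh3* reached 25.2 CPM, where the other controls lay between 19.2 and 20.9 CPM, and *Mmp14* was at 130.8 CPM against 94.1 to 99.9 CPM. In control replicate 1, *Pcdh12* was at 9.61 CPM against 10.45 to 10.8 CPM. In *WD1* cKO replicate 2, *Cdh4* was at 41.7 CPM against 37.2 to 38.3 CPM, and *Cdh15*, M-cadherin of skeletal muscle, was at 0.456 CPM against 4.50 to 5.27 CPM. *Ctnnd1* was at 27.7 CPM in *WD1* cKO replicate 5 against 30.5 to 31.7 CPM, and *Pcdh7* at 146.8 CPM in *WD1* cKO replicate 4 against 136.2 to 138.6 CPM. *Cdh4* in *WD1* cKO replicate 2 is the member among these. The muscle list as a whole summed to 52.6 CPM in that library, within the range of the other *WD1* cKO libraries (45.3 to 95.7 CPM), so the low *Cdh15* was not shared by the list.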

How the results depend on the processing

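The count of members with an adjusted p under 0.05 and that of members past the study's cut-off were 0 under every alternative tried. The number of all genes with an adjusted p under 0.05 was 7 as reported and 4 among genes whose mean count was 100 or more, 11 with a term for replicate numbers 1 to 3 against 4 and 5, 19 in DESeq2's Wald test and from 3 to 6 with a library left out. The cause was not tested, apart from the fewer genes or libraries that some of these settings hold. *Cdh4*, *Cdh7*, *Cdh8*, *Cdh10*, *Cdh11* and *Cdh13* kept their sign in all 17 alternatives, but with a library left out the log2 fold change of *Cdh7* ran from 0.00047 to 0.19, that of *Cdh11* from -0.10 to -0.024, that of *Cdh4* from -0.16 to -0.052 and that of *Cdh13* from -0.29 to -0.14. The log2 fold change of *Cdh2* ran from -0.063 to 0.027, that of *Cdh6* from -0.073 to 0.063, that of *Cdh9* from -0.19 to 0.035 and that of *Cdh12* from -0.0028 to 0.25 with a library left out, and that of *Cdh6* was 0.0072 without the filter on low counts. An unadjusted p under 0.05 was kept by *Cdh8* in 15 and by *Cdh10* in 14 of the 17. With the replicate number as a block, 8 genes had an adjusted p under 0.05, 133 passed the study's cut-off in place of 67, and 3 members had an unadjusted p under 0.05. Libraries of the same number had correlated deviations of 0.33, 0.036, 0.32, 0.35 and 0.39 for numbers 1 to 5, not all above 0.1, and not every library correlated best with its own number, so the numbers were not taken as pairs. Ordered by CPM without length, 2 members kept their place, and with all annotated exons joined 3 did. Of the relations with marker lists, 4 had an adjusted p under 0.05 over all libraries. Without the 2 farthest libraries 0 did, and within numbers 1 to 3 there were 7, all by approximate permutation p-values. No alternative varied the depth, and what it limits was not tested.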

Other observations

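Lists of other cell types gave these levels in the libraries. The 5 endothelial genes (most abundant *Kdr*) summed to 169.6 ± 11.2 CPM in control and 172.1 ± 8.66 CPM in *WD1* cKO libraries (SD, n = 5 each), the 3 mural genes (*Pdgfrb*) to 158.4 ± 20.9 and 160.6 ± 8.97 CPM, and the 4 macrophage genes (*Csf1r*) to 47.4 ± 2.67 and 44.9 ± 3.04 CPM. The 6 skeletal muscle genes (*Acta1*) summed to 91.6 ± 58.9 and 60.7 ± 20.2 CPM, with control replicate 5 the highest at 175.7 CPM and control replicate 4 the lowest at 23.2 CPM. The 5 spinal cord genes were below the filter and were not tested. The 3 blood genes (*Hbb-bs*) summed to 878.5 ± 791.5 CPM in control and 413.1 ± 286.7 CPM in *WD1* cKO libraries (SD, n = 5 each), with all 3 log2 fold changes negative and 0 genes at an unadjusted p under 0.05 in edgeR's test.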
